A study of Mus musculus with 24 samples.

Results

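The ipsilateral hippocampus of Neil2-KO mice was compared with that of wild-type (WT) mice in a hypoxia-ischemia model of newborn brain injury, in which 1 hemisphere is damaged. The comparison used 8 of the 24 RNA-seq libraries of the study: 2 Neil2-KO and 2 WT libraries at 3 h and the same number at 6 h, all from the injured side of postnatal day 10 mice and all chosen by their titles. The study also holds the contralateral hippocampus of each genotype and time, and a further genotype labelled Neil1-KO. All mice, WT included, were subjected to hypoxia-ischemia, and no uninjured group is analysed here. What the hours are counted from, the strain, sex, knockout alleles and any pooling of animals are not given in the sources used here. The reads of Xist and of Y-linked genes, given below, bear on the sex. The 8 libraries titled Neil2-KO carry a genotype field that reads NEIL1-KO; they were grouped by title, and the reads of Neil2 described below bear on that choice. The titles call the replicates biological, but nothing else says that they came from separate animals, so that p-values measure the spread between these libraries.

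Neil2 encodes a DNA glycosylase that starts base excision repair by removing oxidized bases, with a preference for damage in bubbles and single-stranded stretches such as those of transcribed DNA. Neil1 is its relative, and other glycosylases (Ogg1, Nthl1, Neil3, Ung) take on overlapping kinds of damage before AP endonuclease, DNA polymerase beta and ligase finish the repair. Hypoxia-ischemia sets off a wave of immediate-early, heat shock and cytokine genes in the injured hippocampus, a tissue of excitatory pyramidal and granule neurons with interneurons and glia.

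Of the 17838 genes tested, 8 passed a Benjamini-Hochberg adjusted p of 0.05 in limma with time as a blocking factor (0.0448% of genes). Of those 8, 6 rose in Neil2-KO (0.0336%), namely Tmem254a, Plac9a, Duxbl1, Gm8417, Adamdec1 and Arhgap33os, and 2 fell (0.0112%), Ppp1r3e and Esd. All of the 8 but Arhgap33os lie on mouse chromosome 14, which also carries Neil2. At an unadjusted p under 0.05 there were 1429 genes (8.01%), 539 higher (3.02%) and 890 lower (4.99%) in Neil2-KO. Libraries of the 2 genotypes did not overlap within either time, in 1 direction, for 9.12% of genes, with Neil2-KO above WT for 3.48% and below it for 5.64%. The values below are read counts that the authors normalized by library size factors, and log2 fold changes are differences of log2(value + 1). The depth was 18702928 to 29252067 reads a library, of which 16863759 to 26292997 fell on named genes.

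Neil2 reads were close to absent from the Neil2-KO libraries. The 4 WT libraries had normalized counts of 15.2 and 21.9 at 3 h and 16.02 and 26.3 at 6 h. The Neil2-KO libraries had 0 and 0.945 at 3 h and 3.02 and 0 at 6 h. All 4 lay below every WT library. Summed over libraries, Neil2-KO had 5 reads and WT 85, a scaled level of 5.33% relative to WT with an exact 95% interval of 1.69% to 12.9% that covers counting error only. The log2 fold change was -3.61 (SE 0.50), and with the few reads of this gene the adjusted p in limma was 0.0545, so that Neil2 itself was not called. It was called in 5 of the 18 alternative fits. Contralaterally the gene gave 4 reads against 78, or 5.17% of WT (1.37% to 13.8%). The labelled Neil1-KO ipsilateral libraries held 26.9, 23.5, 16.6 and 28.7, in the range of WT or just above it. The tested genes next to Neil2 in the chromosome's order, Fdft1 (squalene synthase) on the one side and Fam167a on the other, were not called, with log2 fold changes of -0.07 and -0.17. Beyond Fdft1, Ctsb (cathepsin B, a lysosomal protease) was not called either, at 0.12. Neil1 was 133, 129, 117 and 97.4 in Neil2-KO and 119, 117, 96.1 and 123 in WT, and the 2 genotypes overlapped (log2 fold change 0.06, SE 0.12, adjusted p = 0.896 in limma). In the labelled Neil1-KO ipsilateral libraries Neil1 was 153, 146, 115 and 155, none below the lowest WT library. These gene counts thus show no loss of Neil1 reads in the libraries so labelled.

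**Figure D1:**
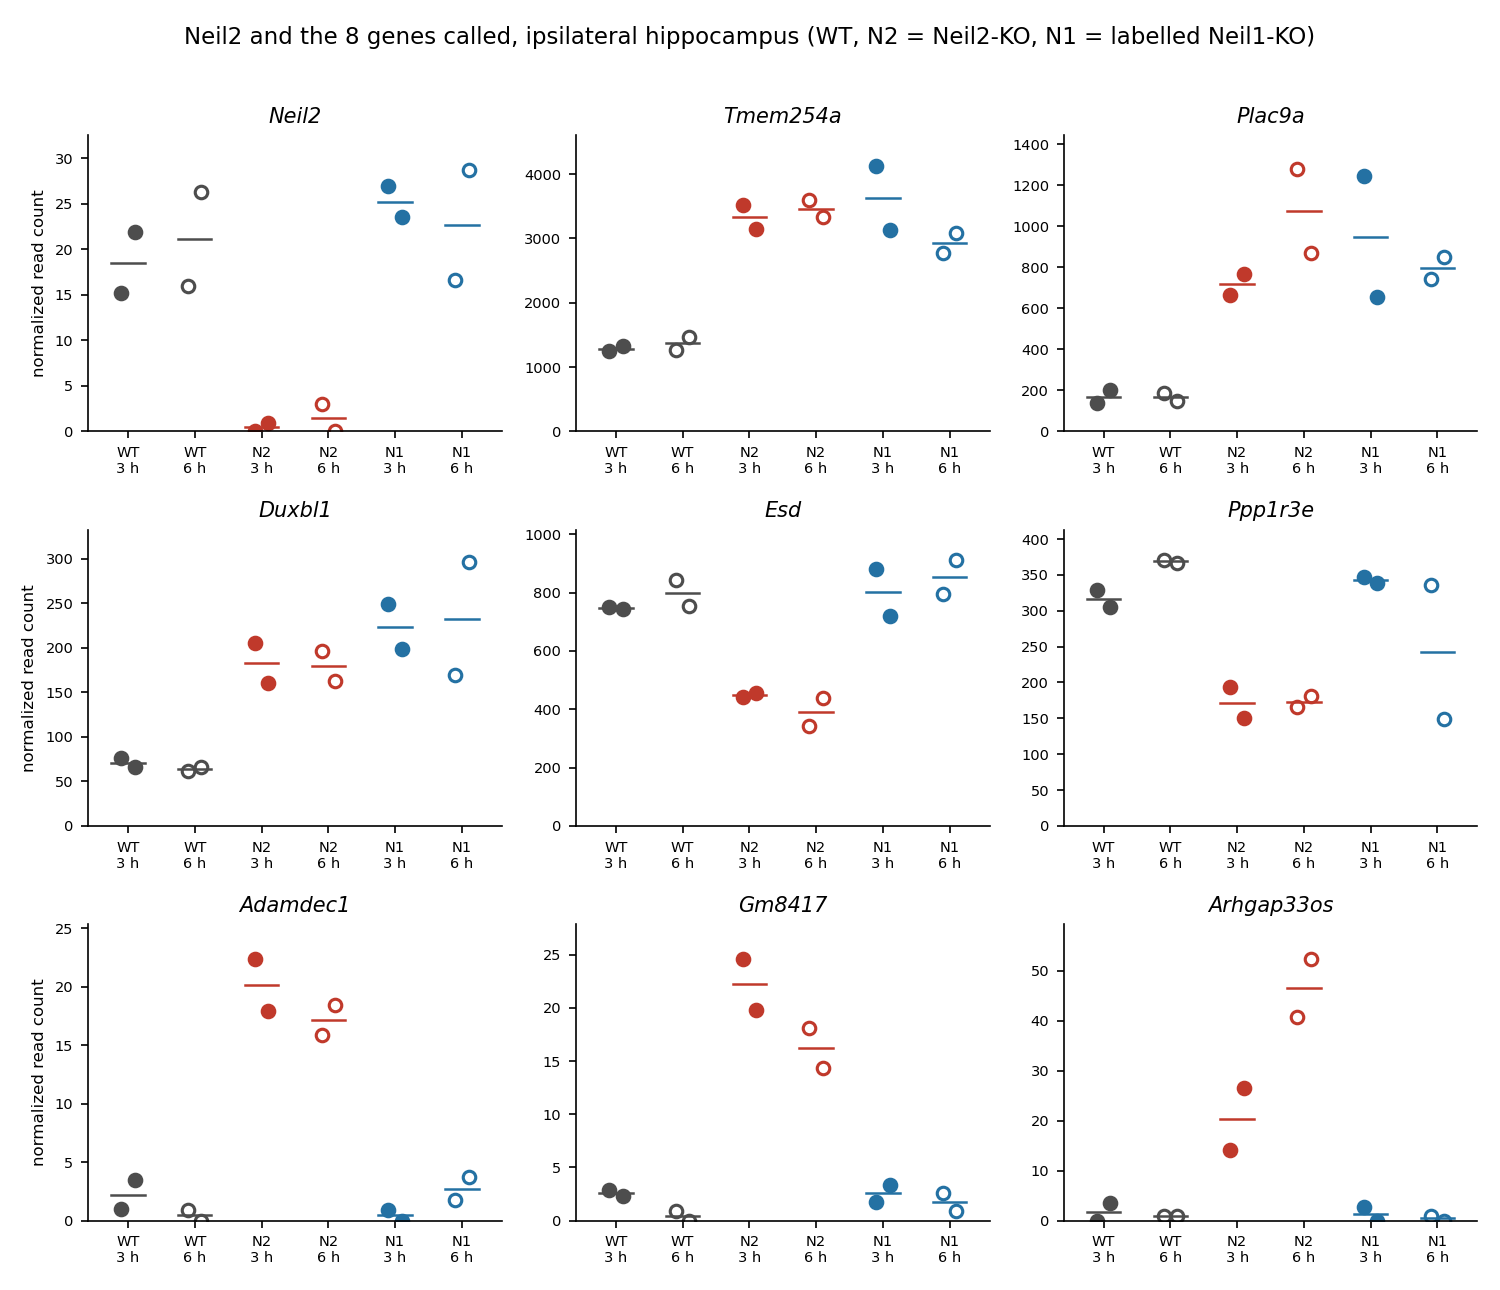
Normalized read count in each ipsilateral library of Neil2 and of the 8 called genes. Grey points are WT, red points Neil2-KO (N2) and blue points the labelled Neil1-KO (N1), filled at 3 h and open at 6 h, bars are the means of 2 libraries and every axis starts at 0. Neil2-KO lies at 0 to 3.02 for Neil2 against 15.2 to 26.3 in WT, and for each called gene all 4 Neil2-KO libraries lie on 1 side of all 4 WT libraries.

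Tmem254a, Plac9a and Duxbl1 are neighbours among the tested genes of chromosome 14. Tmem254a encodes a small membrane protein, Plac9a a small secreted protein first found in placenta, and Duxbl1 a double homeobox protein. Each has near-identical copies in the reference: 73.1% of the 50-base stretches of the Tmem254a transcripts in GENCODE M21 also occur in transcripts of Tmem254b or Tmem254c, 70.5% of those of Plac9a in Plac9b, and 93.5% of those of Duxbl1 in Duxbl2 or Duxbl3. How reads that fit several copies were counted is not given in the sources used here, so that each value may hold reads of the copies, whose own values are not analysed here. The likeness runs into the sequence upstream of the genes, which is shown for 2 of the 3 families because it shows how far the likeness of the copies reaches. The 250 bases before the transcript start, from RefSeq on GRCm38.p6, were read on the minus strand for Tmem254a (chr14:25927673-25927922), Tmem254b (chr14:26207026-26207275), Plac9a (chr14:25902894-25903143) and Plac9b (chr14:26182352-26182601). Capitals mark the longest stretch that a gene and its copy share.
Tmem254a: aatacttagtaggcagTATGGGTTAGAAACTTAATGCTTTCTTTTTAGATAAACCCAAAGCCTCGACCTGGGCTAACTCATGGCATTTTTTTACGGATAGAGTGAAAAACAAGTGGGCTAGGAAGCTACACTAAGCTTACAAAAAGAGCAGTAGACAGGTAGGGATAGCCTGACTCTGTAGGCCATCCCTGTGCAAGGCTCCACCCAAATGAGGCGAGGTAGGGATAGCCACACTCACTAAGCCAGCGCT
Tmem254b: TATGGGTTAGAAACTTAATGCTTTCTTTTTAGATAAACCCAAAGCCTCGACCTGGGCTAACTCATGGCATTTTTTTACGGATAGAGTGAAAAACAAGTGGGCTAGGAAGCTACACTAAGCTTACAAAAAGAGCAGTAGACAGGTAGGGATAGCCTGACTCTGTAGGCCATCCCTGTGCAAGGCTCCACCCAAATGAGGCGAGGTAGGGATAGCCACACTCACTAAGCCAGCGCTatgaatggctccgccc
Plac9a: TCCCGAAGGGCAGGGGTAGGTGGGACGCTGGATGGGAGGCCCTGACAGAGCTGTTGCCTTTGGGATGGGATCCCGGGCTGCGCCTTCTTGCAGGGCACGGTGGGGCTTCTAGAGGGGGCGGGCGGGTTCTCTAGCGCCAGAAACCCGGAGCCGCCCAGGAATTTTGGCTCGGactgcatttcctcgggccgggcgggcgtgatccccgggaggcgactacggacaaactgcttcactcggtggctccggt
Plac9b: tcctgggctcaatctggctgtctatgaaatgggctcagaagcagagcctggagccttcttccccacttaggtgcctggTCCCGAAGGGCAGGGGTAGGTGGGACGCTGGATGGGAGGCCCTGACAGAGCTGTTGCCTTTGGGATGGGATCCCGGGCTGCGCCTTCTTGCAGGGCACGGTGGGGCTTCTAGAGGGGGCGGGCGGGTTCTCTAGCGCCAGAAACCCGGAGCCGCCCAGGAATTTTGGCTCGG
Tmem254a and Tmem254b share 234 bases in a row, shifted by 16 bases, and the same window of Tmem254c is identical to that of Tmem254a over all 250 bases. Plac9a and Plac9b share 172 bases in a row, shifted by 78. The build of the deposited values is GRCm39, so that these coordinates locate the RefSeq windows and not the counted features.

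Tmem254a gave the smallest p of all genes. WT libraries held 1243 and 1331 at 3 h and 1272 and 1462 at 6 h, and Neil2-KO libraries held 3523 and 3154 at 3 h and 3595 and 3334 at 6 h. The lowest Neil2-KO library was above the highest WT library at both times (log2 fold change 1.36, SE 0.07, adjusted p = 5.81e-05 in limma). Plac9a was 136, 202, 185 and 147 in WT against 666, 767, 1279 and 867 in Neil2-KO (log2 fold change 2.39, SE 0.18, adjusted p = 0.00135 in limma). Duxbl1 was 76.7, 65.7, 61.4 and 66.6 in WT against 206, 161, 197 and 163 in Neil2-KO (log2 fold change 1.41, SE 0.13, adjusted p = 0.0061 in limma). All 3 were separated without overlap. They were also high in the labelled Neil1-KO libraries, which were set beside the same WT libraries: Tmem254a was 2781 to 4122 there, Plac9a 652 to 1242 and Duxbl1 169 to 296. Each of the 3 was called in all 8 fits that left out 1 library.

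Esd and Ppp1r3e fell. Esd encodes esterase D, which hydrolyses S-formylglutathione in the removal of formaldehyde. It was 749 and 744 at 3 h and 844 and 755 at 6 h in WT, against 444 and 457 at 3 h and 343 and 438 at 6 h in Neil2-KO (log2 fold change -0.88, SE 0.10, adjusted p = 0.0197 in limma). The labelled Neil1-KO libraries, at 721 to 912, were in or near the WT range. Esd-ps, listed as its pseudogene on the same chromosome, was 192 to 219 in WT and 103 to 146 in Neil2-KO without overlap, but was not called (log2 fold change -0.75, adjusted p = 0.122 in limma). Esd and Esd-ps transcripts share 3.7% of the 50-base stretches of Esd. Ppp1r3e encodes a subunit that directs protein phosphatase 1 to glycogen. Its WT values were 329, 305, 371 and 367 and its Neil2-KO values 194, 150, 165 and 181 (log2 fold change -0.99, SE 0.11, adjusted p = 0.015 in limma). In the labelled Neil1-KO libraries 3 values, 335 to 347, were in the WT range and 1, at 149, was just below the lowest Neil2-KO library.

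Adamdec1, Gm8417 and Arhgap33os were near 0 in WT. Adamdec1 and Gm8417 fell outside the rule for naming genes, because of low means and a predicted name, and are named after their values were seen. Adamdec1, a secreted metalloprotease of the ADAM family, had 0.947, 3.46, 0.890 and 0 in WT and 22.3, 18.0, 15.9 and 18.5 in Neil2-KO. That is 88 reads against 5, a scaled ratio of 16 with an exact 95% interval of 6.59 to 50.4 for counting error (limma adjusted p = 0.0448). Gm8417 had 0 to 2.84 in WT and 14.4 to 24.6 in Neil2-KO, or 92 reads against 6 (ratio 13.9, 6.15 to 38.9, limma adjusted p = 0.027). Arhgap33os, a transcript from the strand opposite to Arhgap33 on chromosome 7, had 0, 3.46, 0.890 and 0.823 in WT and 14.2, 26.5, 40.8 and 52.3 in Neil2-KO, or 152 reads against 5 (ratio 27.6, 11.6 to 86.1, limma adjusted p = 0.0454). The labelled Neil1-KO libraries held 0 to 3.70 of Adamdec1 and 0 to 2.61 of Arhgap33os. Whether reads were counted by strand is not given in the sources used here, so that reads of Arhgap33os and of Arhgap33 may not be told apart. Arhgap33 itself was 5356 to 6729 in WT and 4783 to 5354 in Neil2-KO and was not called (log2 fold change -0.25, adjusted p = 0.617 in limma).

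The size of the call list depended on single libraries. It was 3 without WT 3 h replicate 1, WT 6 h replicate 1 or Neil2-KO 6 h replicate 2, 4 without Neil2-KO 3 h replicate 1, and 5 without Neil2-KO 6 h replicate 1. Over the 8 fits that each left out 1 library, Ppp1r3e was called in 4, Esd in 3, Arhgap33os and Adamdec1 in 2 and Gm8417 in 1.

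Another 6 genes had an adjusted p between 0.05 and 0.1, and 4 of them, Neil2, Ang, Pnma2 and Tnfrsf10b, lie on chromosome 14. They and the other genes of this paragraph are given as values, chosen after those were seen. Ang, the secreted ribonuclease angiogenin, was 19.9, 38.0, 20.5 and 24.7 in WT and 5.96, 6.62, 4.53 and 4.10 in Neil2-KO, 25 reads against 107 (adjusted p = 0.0545 in limma). Rnase6, another secreted ribonuclease, was 5.68 to 12.7 in WT and 0 to 2.26 in Neil2-KO. Rnase4, the ribonuclease gene between them, had a log2 fold change of 0.02 with an unadjusted p of 0.891 in limma. Pnma2, of a family related to retrotransposon gag proteins, was 1090 to 1309 in WT and 528 to 891 in Neil2-KO. Tnfrsf10b, a death receptor for the ligand TRAIL, ran the other way, at 28.8 to 58.7 in WT and 86.1 to 115.5 in Neil2-KO (log2 fold change 1.21, adjusted p = 0.0958 in limma). Gfra2, a co-receptor for neurturin, was 445 to 741 in WT and 274 to 307 in Neil2-KO, with an adjusted p of 0.11 in limma. Ang, Rnase6, Pnma2, Tnfrsf10b and Gfra2 did not overlap between the genotypes, beside 9.12% of all genes that did not overlap within either time. Since they were chosen with their values known, this lack of overlap adds no support.

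Small differences were also more frequent on chromosome 14 than elsewhere. Of its 711 tested genes, 139 had an unadjusted p under 0.05, which is 19.5%, against 7.53% of the genes elsewhere and 5.65% to 9.07% on each of the other autosomes. Of the 139, 41 were higher and 98 lower in Neil2-KO, and all 139 had the same sign at 3 h and at 6 h. Choosing genes by a p over both times largely fixes that agreement, and 1283 of the 1288 such genes elsewhere also had 1 sign at both times. Of the 137 that also passed the filter contralaterally, 119 (86.9%) had the same sign there, in tissue taken as coming from the same animals, beside 780 of 1255 (62.2%) elsewhere. By distance in gene order the share was 24% within 25 tested genes of Neil2, 20% within 50, 18% within 100 and 20% beyond 100. Beyond 100, and without the run of predicted genes at the chromosome's start that is described next, it was 16% (68 of 426). Among genes with standard names only, it was 19.1% of 514 on chromosome 14 and 8.14% of 13807 on the other autosomes.

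**Figure D2:**
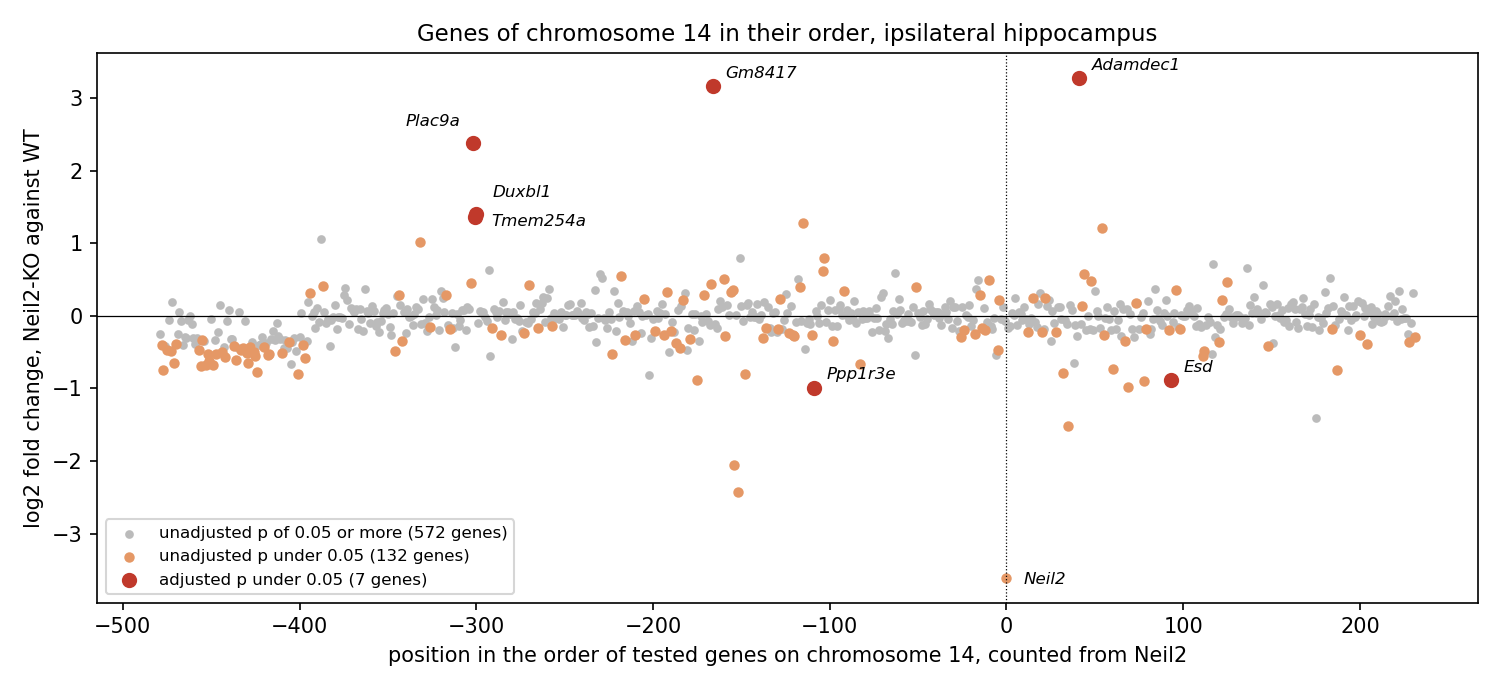
Log2 fold change of Neil2-KO against WT for the 711 tested genes of chromosome 14, ipsilateral side, over both times. The x axis is the place in gene order counted from Neil2 at 0, and colour and size mark unadjusted and adjusted p. The 7 called genes stand 41 to 302 places from Neil2, and a run of genes at the left end lies below 0.

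The called genes were spread along the chromosome. Adamdec1 was 41 tested genes from Neil2 on the one side and Esd 93, while Ppp1r3e was 109 on the other, Gm8417 166, and Duxbl1, Tmem254a and Plac9a 300, 301 and 302. At the start of the chromosome a run of 84 tested genes, 83 of them with predicted names, lay mostly below 0: 78 of the 84 were lower in Neil2-KO, with a median log2 fold change of -0.38, and all 34 with an unadjusted p under 0.05 were lower. The median of the run was -0.06 at 3 h, -0.68 at 6 h and -0.12 contralaterally. Many of these predicted genes belong to multi-copy families whose reads may be divided among copies, and the run was set after the order was plotted. The other 627 tested genes had a median of 0.00, and 105 of them (16.7%) had an unadjusted p under 0.05, 41 higher and 64 lower.

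Near Arhgap33os on chromosome 7, Kirrel2 also differed. Kirrel2 encodes an adhesion molecule of the immunoglobulin superfamily related to nephrin, and only Nphs1, the nephrin gene, lies between them among the tested genes. Kirrel2 was 70.1 and 70.3 at 3 h and 38.3 and 35.4 at 6 h in WT, against 122 and 148 at 3 h and 135 and 148 at 6 h in Neil2-KO. The labelled Neil1-KO libraries, at 35.9 to 46.1, resembled WT at 6 h. Over both times its adjusted p was 0.0545 in limma (log2 fold change 1.42, SE 0.20). Nphs1 itself was not called, at 109 to 412 in WT and 117 to 448 in Neil2-KO.

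The times were then taken singly, with 1 mean for each genotype and time and 1 estimate of the spread from all 8 libraries. At 3 h only Tmem254a was called (0.00561% of genes; 284 genes, or 1.59%, had an unadjusted p under 0.05), and the call was lost without WT 3 h replicate 1, WT 3 h replicate 2 or Neil2-KO 3 h replicate 2. At 6 h 4 genes were called (0.0224%; 2036 genes, or 11.4%, had an unadjusted p under 0.05). Tmem254a, Plac9a and Kirrel2 rose in Neil2-KO (0.0168%) and Tcf7l2 fell (0.00561%). Over the 8 fits that each left out 1 library, Kirrel2 was called at 6 h in 4 and Tcf7l2 in 2. For Kirrel2 the 6 h log2 fold change was 1.91 (SE 0.19, adjusted p = 0.0172 in limma). The number of genes called at 6 h was 0 without Neil2-KO 6 h replicate 2, 2 without either WT 3 h library, 14 without WT 6 h replicate 2 and 2200 without WT 6 h replicate 1. The 2 WT libraries at 6 h differed the most of any pair: the median over genes of the SD of log2 values was 0.16 for them, and 0.0749, 0.101 and 0.105 for the other pairs. The 1 shared estimate of the spread does not follow these unlike spreads. The p-values may therefore be too small at 6 h and too large at 3 h, here and in the gene lists below. Counts of genes under a p are thus not directly comparable between the 2 times.

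Tcf7l2, a transcription factor of Wnt signalling that is abundant in thalamus, was 84.3 and 122 at 3 h in WT and 582 and 940 at 6 h. In Neil2-KO it was 87.9 and 119 at 3 h and 145 and 100 at 6 h. The 2 WT libraries at 6 h were thus apart from the other 6, and from the 95.3 to 231 of the labelled Neil1-KO libraries (log2 fold change at 6 h -2.61, SE 0.29, adjusted p = 0.0426 in limma). Slc17a6, the vesicular glutamate transporter that thalamic neurons use, was 1185 and 2020 in WT at 6 h against 566 and 707 in Neil2-KO, and was not called. Over a list of 12 thalamus markers, 9 were lower in Neil2-KO at 6 h, with a median log2 fold change of -0.24 beside 0.0021 for all genes. The summed level of the list was 6871 and 7675 in WT at 6 h and 5104 and 5898 in Neil2-KO. Tcf7l2 and Slc17a6 are members of the list, so that its median and sum include the genes just given and add no separate support. The other 3 of the 12 markers were higher at 6 h, among them Rgs16, at 561 and 503 in WT and 677 and 687 in Neil2-KO. The part of these markers in the 6 h differences was not tested beyond a fit with a term for them, in which no gene was called at 6 h. Tcf7l2 is itself a member of that list, and the added term leaves less from which to estimate the spread. The fit therefore cannot test the difference of Tcf7l2.

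No gene passed the test of whether the genotype difference itself differed between 3 h and 6 h (0% of 17838). At an unadjusted p under 0.05 there were 670 such genes (3.76%), edgeR on the recovered reads called 0 and DESeq2 9, and limma without WT 6 h replicate 1 called 528. For each called gene the adjusted p of this test was 0.997. Egr1, an immediate-early transcription factor, gave one of the wider differences: WT libraries had 13960 and 14180 at 3 h and 3892 and 2919 at 6 h, and Neil2-KO libraries 15750 and 10100 at 3 h and 9814 and 5836 at 6 h (log2 fold change 1.17 at 6 h and -0.16 at 3 h). The genotypes overlapped at 3 h and not at 6 h.

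**Figure D3:**
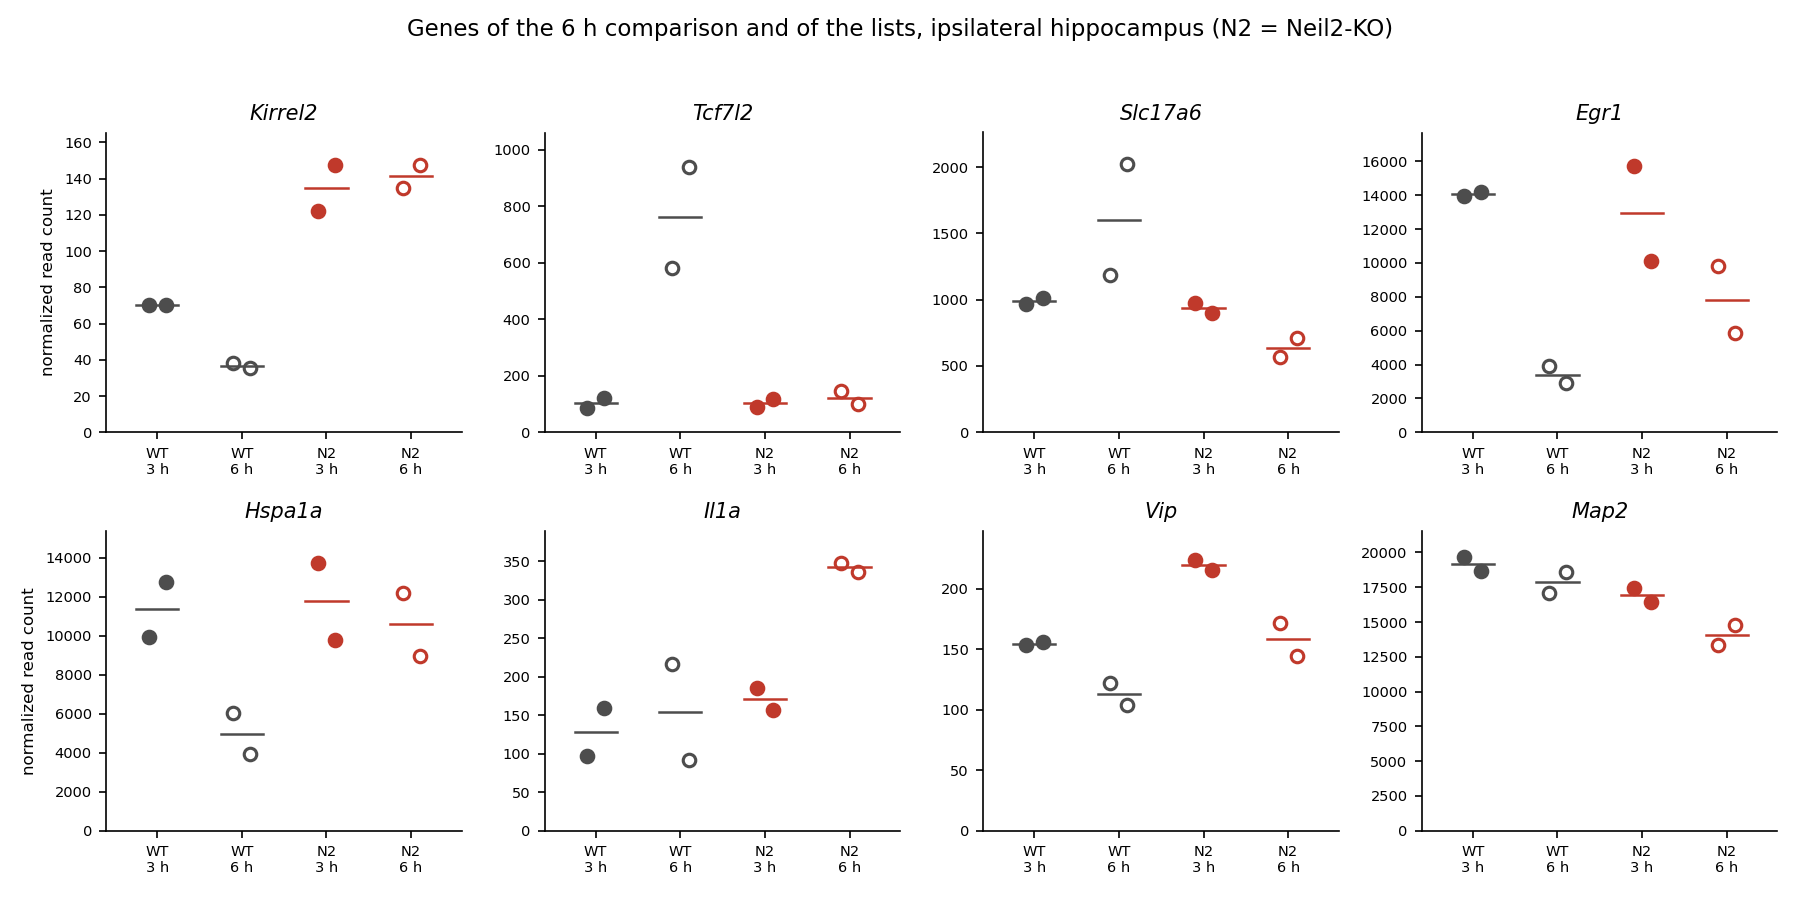
Normalized read count in each ipsilateral library for 8 genes, grey for WT and red for Neil2-KO (N2), filled at 3 h and open at 6 h, with bars at the means of 2 libraries and axes from 0. Tcf7l2 is high only in the WT libraries at 6 h (582 and 940), while Kirrel2 is higher in Neil2-KO at both times.

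Gene lists were described by the signs and the median of their tested members, beside a median log2 fold change over all genes of 0.0016 for both times, -0.0070 at 3 h and 0.0021 at 6 h. No member of any of the 40 lists was called over both times, and at 6 h Tcf7l2 was the only one. The lists below are therefore given as values, and their members share libraries.

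Genes of the injury response had positive medians at 6 h. Of 25 immediate-early genes, 24 were higher in Neil2-KO at 6 h, with a median of 0.74 against -0.21 at 3 h, where 22 were lower. At 6 h 19 of 25 had an unadjusted p under 0.05 in the higher direction, beside 5.12% of all genes. The 1 gene lower at 6 h, Nr4a2, was lower at 3 h too (log2 fold changes -0.20 and -0.17), without overlap within a time. Atf3, a stress-induced transcription factor, was 4146 and 2551 in WT and 5492 and 5351 in Neil2-KO at 6 h. Of 26 cytokine and NF-kB genes, all were higher at 6 h (median 0.75, and 0.10 at 3 h), 13 with an unadjusted p under 0.05. Il1a, an early cytokine of microglia, was 96.6 and 159 in WT at 3 h and 216 and 91.3 at 6 h, and 185 and 157 in Neil2-KO at 3 h and 348 and 336 at 6 h. Ptgs2, the inducible cyclooxygenase, was 161 and 93.8 in WT and 220 and 268 in Neil2-KO at 6 h. Without WT 6 h replicate 2 the 6 h medians were 0.57 and 0.49, without Neil2-KO 6 h replicate 1 0.57 and 0.59, and the cytokine genes with an unadjusted p under 0.05 were 6 and 5.

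Heat shock genes gave a median of 0.29 at 6 h over 19 members, and 0.01 without WT 6 h replicate 2. Hspa1a, the inducible Hsp70 chaperone, was 6029 and 3904 in WT and 12190 and 8969 in Neil2-KO at 6 h, and the genotypes overlapped at 3 h. Its near-identical copy Hspa1b had a similar log2 fold change at 6 h, 1.14 against 1.11, and their reads may be divided between them. Integrated stress and unfolded protein genes had a median of 0.19 at 6 h, and 0.01 without WT 6 h replicate 2. The median of hypoxia and glycolysis genes was 0.09. Vegfa, the hypoxia-induced angiogenic factor, was 1678 and 1609 in WT and 2642 and 2180 in Neil2-KO at 6 h. Interferon and antigen presentation genes had a median of 0.26 at 6 h, and that too was 0.01 without WT 6 h replicate 2.

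DNA repair genes other than Neil2 had medians near 0. Among 11 DNA glycosylases 6 were higher and 5 lower, with a median of 0.01, and Neil2 was the only one with an unadjusted p under 0.05. Neil3 and Nthl1, which also act on oxidized pyrimidines, had log2 fold changes of 0.39 (SE 0.25) and 0.26 (SE 0.18). Among 20 genes of the later steps of base excision repair the median was 0.01, and none had an unadjusted p under 0.05. Parp2, a sensor of strand breaks, was at 0.20 (SE 0.11) and Apex1, the AP endonuclease, at 0.16 (SE 0.11). Of 24 genes of other repair pathways 1, Ercc8, had an unadjusted p under 0.05, at -0.21 (SE 0.09). Genes of p53 signalling and apoptosis had a median of -0.01 over 28 members. Tnfrsf10b, Trp53 and Gadd45g had an unadjusted p under 0.05 above WT. Trp53 was 407 to 478 in WT and 465 to 560 in Neil2-KO. NRF2 and antioxidant genes had a median of 0.02, with Hmox1, the inducible heme oxygenase, at 818 to 1112 in WT and 959 to 1472 in Neil2-KO. Slc7a11, the cystine transporter, and Nqo1, a quinone reductase, ran the other way with an unadjusted p under 0.05, at log2 fold changes of -0.18 and -0.42.

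The pan-neuronal, synaptic, channel and GABA lists had negative medians. Of 14 pan-neuronal genes 12 were lower in Neil2-KO (median -0.15, -0.26 at 6 h), and 4 had an unadjusted p under 0.05, beside 4.99% of all genes in that direction. Map2, a dendritic microtubule protein, was 19650 and 18640 in WT at 3 h and 17090 and 18630 at 6 h, and 17450 and 16430 in Neil2-KO at 3 h and 13310 and 14810 at 6 h, with no overlap within a time. Tubb3, the neuronal beta tubulin, was lower in Neil2-KO without overlap within a time too, at 14490 to 19510 in WT and 12540 to 15400 in Neil2-KO. The medians were -0.14 for 24 presynaptic genes, -0.13 for 22 postsynaptic genes, -0.11 for 22 glutamate receptor genes, -0.12 for both the potassium channel and the sodium and calcium channel genes, and -0.06 for 19 GABA system genes. Without WT 6 h replicate 2 the pan-neuronal median at 6 h was -0.10 and the presynaptic one -0.07. Interneuron genes had a median of 0.09 with members on both sides. Vip, the neuropeptide of one interneuron class, was 153 and 156 in WT at 3 h and 122 and 104 at 6 h, and 223 and 216 in Neil2-KO at 3 h and 171 and 145 at 6 h (log2 fold change 0.49, SE 0.11, adjusted p = 0.545 in limma). Npy, a neuropeptide of another class, was 599 to 768 in WT and 793 to 1033 in Neil2-KO. Calb2, another member, ran the other way, at 1752 to 2315 in WT and 1331 to 1968 in Neil2-KO (log2 fold change -0.27). Of the interneuron genes with an unadjusted p under 0.05, 3 were higher and 1, Calb2, was lower.

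Glial and vascular lists had positive medians. All 17 homeostatic astrocyte genes were higher in Neil2-KO (median 0.24, and 0.37 at 6 h). At 6 h 11 of them had an unadjusted p under 0.05, beside 5.12% of all genes in that direction. Slc1a2, the main astrocytic glutamate transporter, was 33570 and 25680 in WT and 48600 and 36850 in Neil2-KO at 6 h. Without Neil2-KO 6 h replicate 1 the 6 h median of the list was 0.18 and none of its genes had an unadjusted p under 0.05. Of 19 microglial genes 17 were higher (median 0.22, and 0.09 without Neil2-KO 6 h replicate 1), with 6 not overlapping at either time, beside 3.48% of all genes. The 2 lower ones were Tmem119 and Sall1, at log2 fold changes of -0.61 and -0.08. Contralaterally the median of the microglial list was 0.23. Tyrobp, a microglial signalling adaptor, was 140, 144, 175 and 164 in WT and 161, 225, 270 and 208 in Neil2-KO. Tyrobp also lies near Kirrel2 and Arhgap33os, described above, and whether its difference goes with that place was not tested. All 20 endothelial genes were higher (median 0.26, and 0.14 without WT 6 h replicate 2), such as Ly6c1 at 244 to 319 in WT and 292 to 403 in Neil2-KO. Reactive astrocyte genes had a median of 0.26, and 0.02 without Neil2-KO 3 h replicate 2. Oligodendrocyte genes had one of 0.10, which turned to -0.15 without WT 6 h replicate 1. In such bulk libraries fewer cells of a type and less RNA per cell cannot be told apart.

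**Figure D4:**
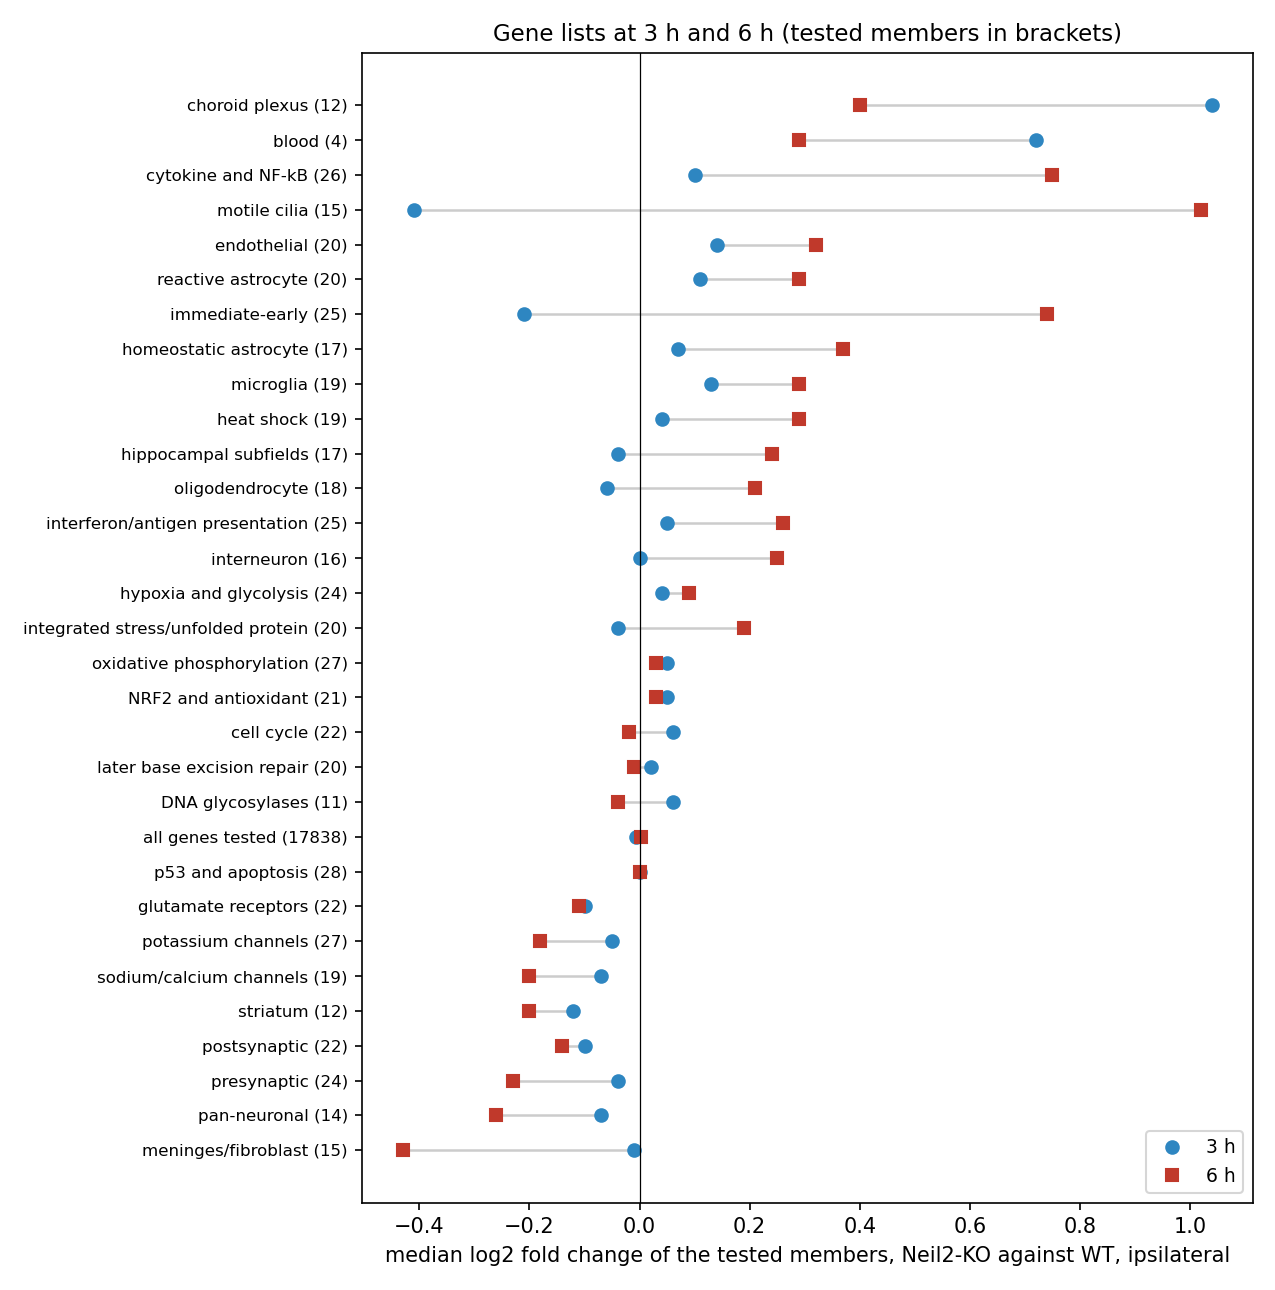
Median log2 fold change of Neil2-KO against WT over the tested members of 30 gene lists and over all genes, at 3 h (blue circles) and 6 h (red squares), with the number of tested members in brackets. All genes together lie at -0.0070 and 0.0021, the immediate-early list moves from -0.21 to 0.74 and the pan-neuronal list from -0.07 to -0.26.

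Markers of tissue beside the hippocampus varied among the libraries. Genes of the hippocampal subfields had a median of 0.13 over both times and 0.24 at 6 h, where 14 of 17 were higher, opposite in sign to the pan-neuronal list. Without WT 6 h replicate 2 these medians were -0.05 and -0.06. Fibcd1, a marker of field CA1, was at 499 to 2435 in WT and 1598 to 2292 in Neil2-KO. Over both times 12 members were higher and 5 lower. The only one with an unadjusted p under 0.05 in limma, Mpped1, was lower (log2 fold change -0.41). Mpped1 was at 3437 to 5836 in WT and 2966 to 3420 in Neil2-KO. The 12 tested choroid plexus markers had the highest median of all lists, 0.67, and 0.27 without Neil2-KO 3 h replicate 2. In that library Ttr, the transthyretin gene of choroid plexus epithelium, was 26780, against 212 to 803 in the other Neil2-KO libraries and 83.3 to 331 in WT. The list's summed level was 34270 there and 1626 to 2312 in the other 7 libraries. Motile cilium genes had a median of -0.41 at 3 h and 1.02 at 6 h, and 0.39 at 6 h without WT 6 h replicate 2. Meningeal and fibroblast genes had a median of -0.34 (-0.07 without WT 6 h replicate 2), and Ptgds, of the meninges, ranged from 344 to 6990 in Neil2-KO and 914 to 8413 in WT. Lum, another member, ran the other way, at 77.3 to 128 in WT and 134 to 204 in Neil2-KO (log2 fold change 0.52). Of the list, 6 members were higher and 9 lower, and in each direction 1 had an unadjusted p under 0.05 in limma. The 4 tested blood genes had a median of 0.54 (0.33 without WT 3 h replicate 2), and 12 striatal markers one of -0.13 (-0.07 without WT 6 h replicate 2). Xist, the RNA of the inactive X chromosome, was 10110 in Neil2-KO 6 h replicate 2 and at most 16.9 in the other 7 libraries. The Y-linked genes Ddx3y, Uty and Kdm5d were 24.6, 8.20 and 2.05 there. In the other 7 they were 1138 to 1446, 182 to 258 and 343 to 419. By these genes that library has the pattern of a female and the other 7 that of males. The genotypes are thus unevenly matched in sex at 6 h. The part of these differences in the calls was not tested beyond leaving libraries out: without both the library high in Ttr and the one high in Xist, a choice made after seeing the data, 1 gene was called, Tmem254a.

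The remaining lists had medians from -0.03 to 0.16. Oxidative phosphorylation genes had a median of 0.04, cell cycle genes 0.01, cholesterol genes -0.01, clock genes -0.03, imprinted genes 0.02, glucocorticoid targets 0.07, neurotrophin and plasticity genes 0.10, sex-linked genes 0.01 and collagen and matrix genes 0.16. The last was 0.03 without Neil2-KO 3 h replicate 2, and the neurotrophin median was 0.02 without WT 6 h replicate 2. The sex-linked list joins Xist with Y-linked genes that ran the other way, so that its median does not show the library high in Xist. Among imprinted genes, Usp29 was 628 to 885 in WT and 398 to 595 in Neil2-KO and Zim1 294 to 364 in WT and 227 to 276 in Neil2-KO. The 2 are close to one another on chromosome 7, and neither was called.

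The last question was whether the genotype difference was particular to the injured side. The opposite hippocampus was compared in the same way, and then the difference between sides was tested over the 8 animals, with same-numbered libraries of the 2 sides taken as 1 animal. Contralaterally 12 of 17615 genes were called (0.0681%). Of the 8 genes called ipsilaterally, 6 were also called there and all 8 had the same sign. Duxbl1 and Adamdec1 were the exceptions to the call, with contralateral log2 fold changes of 1.05 (SE 0.23) and 3.25 (SE 0.55). For Tmem254a the contralateral log2 fold change was 1.43 (SE 0.09), for Plac9a 2.16 (SE 0.13), for Esd -0.73 (SE 0.11) and for Ppp1r3e -0.87 (SE 0.12). Tmem260, an O-mannosyltransferase gene on chromosome 14, showed the reverse pattern of calls and was chosen after its values were seen: it was called contralaterally and was 254 to 318 in WT and 124 to 247 in Neil2-KO ipsilaterally (adjusted p = 0.44 in limma).

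No gene passed the test of the difference between sides (0% of 18129), while 1018 (5.62%) had an unadjusted p under 0.05, edgeR called 0 and DESeq2 2. For Tmem254a the difference of the 2 sides was -0.07 on the log2 scale (95% interval -0.36 to 0.22), for Plac9a 0.23 (-0.49 to 0.94), for Esd -0.15 (-0.57 to 0.26) and for Ppp1r3e -0.11 (-0.52 to 0.30). Tnfrsf10b was 12.5 to 41.0 in WT and 25.3 to 37.3 in Neil2-KO contralaterally, so that the genotypes overlapped there, and its difference between sides was 0.78 (-0.26 to 1.83). Gm8417 had a difference of 1.02 (0.23 to 1.81), with an adjusted p of 0.802 in limma. Il1a was 2.3 to 11.5 in WT and 2.66 to 9.50 in Neil2-KO contralaterally, below every library of the injured side in both genotypes.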

How the data were processed

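Total RNA of the hippocampus was sequenced. The deposited table holds a signal that the authors made by dividing read counts by size factors, and the submitters' processing notes name the build GRCm39, the trimmer Trim Galore, the aligner HISAT2, and also featureCounts, SAMtools and DESeq2. Versions, settings and strand are not given in the sources used here. All values (100%) were whole multiples of 1 read to a tolerance of 1e-06, so that reads could be recovered. Of 33084 lines, 10770 (32.55%) had no gene name and were left out. Symbols on several lines (24) were kept apart.

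Genes that reached a value of 10 in 2 or more of the 8 libraries entered the test as log2(value + 1) with limma 3.58.1 (limma-trend, R 4.3.3), with time and genotype as terms, two-sided, and were called under a Benjamini-Hochberg adjusted p of 0.05. The times, their difference and the sides were fitted as described beside the results. edgeR 4.0.16 and DESeq2 1.42.0 were run on the recovered reads as alternatives. Code was tested on simulated data. Called genes were named if they had a standard name, a mean of at least 20 in a genotype and no overlap within a time, with up to 12 a direction, and up to 4 members a list by smallest p; others are marked as chosen later. Members and lists were chosen with earlier results of these data known. Gene order and sequences come from RefSeq GRCm38.p6. Ratios of reads carry exact intervals for counting error only.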

Additional observations from a re-analysis of the deposited data

Results flagged for a closer look

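Among the 4 ipsilateral libraries of a genotype, taken across both times, 11 of the 134 groups of values checked (27 genes and 40 lists in each genotype) had 1 library whose gap to its nearest neighbour was a larger part of the whole range than Dixon's critical value allows at 95%. Chance flags about 1 group in 20, or 6.7 here.

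In Neil2-KO, Esd was lowest at 343.4 in 6 h replicate 1 and Tmem260 highest at 246.7 in 3 h replicate 2. Xist stood at 10110 in 6 h replicate 2, where the sex-linked list also had a mean log2(value + 1) of 7.619. The choroid plexus list had a mean log2 value of 7.697 in 3 h replicate 2, and the reactive astrocyte list one of 8.467 in 3 h replicate 1.

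In WT, Esd was highest at 843.8 in 6 h replicate 1. The DNA glycosylase list stood apart at a mean log2 value of 6.414 in 3 h replicate 1. In 6 h replicate 2 the striatal list stood apart at 8.822, the clock list at 10.07 and the sex-linked list at 8.918.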

How the results depend on the processing

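The 8 genes called over both times became 25 with DESeq2, 20 with all 24 libraries in the fit, 3 with a term for choroid plexus markers, 1 with a term for thalamus markers and 1 without the libraries high in Ttr and Xist, the last chosen after seeing the data. Leaving out 1 library gave 3 to 9. The 1 gene at 3 h became 4 with DESeq2, 2 with all 24 libraries and 0 with either marker term, and 0 to 2 on leaving out a library. The 4 genes at 6 h became 182 with DESeq2 (63 higher, 119 lower) and 0 with the thalamus term, and 0 to 2200 on leaving out a library. The 0 genes of the test between times became 9 with DESeq2, and 0 to 528 on leaving out a library. The 0 genes of the test between sides became 2 with DESeq2 and 1 without pairing the sides, and stayed at 0 on leaving out any animal. The 12 contralateral genes became 47 with DESeq2 and 3 with the thalamus term, and 3 to 11 on leaving out a library. edgeR gave 8, 1, 4, 0, 0 and 13 in these 6 comparisons. The cause of these changes was not tested. The 8 genes called over both times kept the sign of their log2 fold change in all 18 alternatives, as did Kirrel2 and Tcf7l2 at 6 h in all 16. Over both times Tcf7l2 went from -1.30 to 0.04 with the thalamus term. That term is the mean of a list that holds Tcf7l2 itself, so that no conclusion on Tcf7l2 is drawn from this change. With the replicate number as a block, 3 genes were called over both times. The numbers were not taken as pairing the animals, since deviations of same-numbered libraries of the 2 genotypes correlated at 0.0403 at 3 h and 0.0262 at 6 h. At the depth of these libraries, genes with few reads such as Neil2, Adamdec1 and Arhgap33os rest on the counting intervals given with them.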
